A study of Mus musculus with 14 samples.

Results

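The 10 genes described here are Pou5f1, Nanog, Zfp42, Esrrb, Dppa3, Dppa5a, Lin28a, Sall4, Prdm14 and Tfcp2l1, a list of pluripotency genes taken by name out of 21853 protein-coding genes. For each gene the H3K4me3 peaks with any base within 1 kb of one of its transcription start sites (TSSs) were looked up, or the nearest peak where there was none, together with the putative enhancers within 100 kb. All 10 names were found in the gene annotation, with 33 distinct TSSs.

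Trimethylation of lysine 4 of histone H3 (H3K4me3) was profiled with ChIP-seq in iMEFs, an immortalised mouse embryo fibroblast line. All groups carry floxed Ash2l alleles that were deleted through a Cre-ER recombinase and a lentiviral, FKBP-tagged human ASH2L in their place, a core subunit of the H3K4 methyltransferase complexes that the compound dTAG sends to degradation, and the study used mainly 1 clone of such cells. The 6 H3K4me3 groups are untreated cells and cells kept in dTAG for 30 min, 2 h, 4 h, 8 h or 16 h, with 2 libraries each, and there are 2 input libraries, of untreated cells and of the 16 h time. The data used are 2 lists of positions, 25431 H3K4me3 peaks pooled over all samples and 32965 putative enhancers of control cells, which hold no value per library, so depth is unknown, there is no replicate error, and changes with time were not analysed here.

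H3K4me3 sits at the start sites of genes that are transcribed or ready to be, and it is laid down most readily at promoters rich in CpG dinucleotides. Pluripotency genes are used in embryonic stem cells and the early embryo as a network, in which many but not all encode transcription factors. They are shut off when cells differentiate, with DNA methylation fixing the silent state of many of them. Fibroblasts are therefore cells in which most of this network is normally off, while other regulators of self-renewal are used in many cell types.

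Of the 10 genes, 1, Tfcp2l1, carried an H3K4me3 peak at a start site, which is 10.0% (Wilson 95% interval 1.79 to 40.4%). Of all protein-coding genes, 59.1% carried one. The other 9 genes have 31 TSSs between them, and no peak came within 1 kb of any of these. Since the peak list is a union over the samples, no peak was called there in any group, treated or untreated. For the same reason the Tfcp2l1 peak cannot be assigned to a group, and it may have been called in only some of them. Absence from the list says that the peak caller found no enrichment, not that the mark was at zero, and RNA was not measured in these libraries, so whether the genes were silent was not tested. For Tfcp2l1 the peak goes against reading the whole list as unmarked.

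To show what the marked and unmarked start sites look like, the RefSeq promoters of 4 members and the centre of the peak closest to Nanog are printed here, all from build GRCm38.p6, 5′ to 3′ on the strand of the gene, with CpG dinucleotides in capitals. RefSeq promoters (250 bases before to 50 bases after the gene start) were matched for 6 of the 10 members, and not for Dppa3, Dppa5a, Sall4 and Prdm14. Tfcp2l1 is shown as the marked promoter (chr1:118627695-118627994, plus strand) and Nanog as a CpG-poor one without a peak (chr6:122707239-122707538, plus strand). Pou5f1 (chr17:35505782-35506081, plus strand) and Zfp42 (chr8:43306960-43307259, minus strand) are the unmarked promoters of the genes described first and of the gene farthest from any peak. The last sequence is the middle of the peak upstream of Nanog (chr6:122702841-122703140, plus strand), the peak that lay closest to an unmarked member.
Tfcp2l1 promoter: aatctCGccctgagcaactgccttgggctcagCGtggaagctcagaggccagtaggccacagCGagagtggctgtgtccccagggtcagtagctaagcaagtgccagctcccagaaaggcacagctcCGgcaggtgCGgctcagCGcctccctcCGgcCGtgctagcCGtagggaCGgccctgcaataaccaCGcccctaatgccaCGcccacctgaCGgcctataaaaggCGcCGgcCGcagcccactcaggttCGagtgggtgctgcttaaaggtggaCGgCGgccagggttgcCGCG
Nanog promoter: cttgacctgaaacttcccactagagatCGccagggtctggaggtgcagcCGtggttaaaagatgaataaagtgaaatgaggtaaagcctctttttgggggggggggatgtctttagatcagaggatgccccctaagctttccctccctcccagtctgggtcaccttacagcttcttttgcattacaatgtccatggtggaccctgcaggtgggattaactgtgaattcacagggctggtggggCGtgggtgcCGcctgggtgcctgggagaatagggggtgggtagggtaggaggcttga
Pou5f1 promoter: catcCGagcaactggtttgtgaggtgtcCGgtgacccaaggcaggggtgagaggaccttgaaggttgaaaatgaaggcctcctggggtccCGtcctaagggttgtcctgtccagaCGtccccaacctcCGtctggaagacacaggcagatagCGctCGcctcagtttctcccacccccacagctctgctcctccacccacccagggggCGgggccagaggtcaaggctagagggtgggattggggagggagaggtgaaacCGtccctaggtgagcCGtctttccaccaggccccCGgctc
Zfp42 promoter: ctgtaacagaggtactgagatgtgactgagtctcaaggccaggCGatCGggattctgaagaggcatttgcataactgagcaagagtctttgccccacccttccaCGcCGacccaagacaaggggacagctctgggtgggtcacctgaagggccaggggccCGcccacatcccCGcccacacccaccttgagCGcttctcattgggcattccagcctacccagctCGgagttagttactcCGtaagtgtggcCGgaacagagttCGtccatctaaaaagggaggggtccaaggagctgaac
Nanog upstream peak: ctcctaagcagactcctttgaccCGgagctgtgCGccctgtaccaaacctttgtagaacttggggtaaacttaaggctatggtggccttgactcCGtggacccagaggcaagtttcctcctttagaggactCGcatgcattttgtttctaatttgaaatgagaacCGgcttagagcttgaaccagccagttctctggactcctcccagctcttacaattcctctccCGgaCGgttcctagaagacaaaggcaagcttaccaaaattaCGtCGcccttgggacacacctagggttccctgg

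The marked Tfcp2l1 promoter holds 21 CpGs in its 300 bases. The Nanog promoter holds 4, those of Pou5f1 and Zfp42 hold 11 each, and the Nanog upstream peak holds 9 in the stretch shown. Among the matched promoters not printed, that of Esrrb holds 7 and that of Lin28a 10, so Tfcp2l1 has the most CpGs of the 6.

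Short motifs were searched for on both strands of these promoters, by exact letters, as a description and not as evidence of binding. The octamer ATTTGCAT, the letters that POU-domain factors are known to recognise, was found in the Zfp42 promoter and in none of the other 5, and in 1.74% of 32817 RefSeq promoters. The TATA box letters TATAAA were found in Tfcp2l1 alone of the 6, and in 13.6% of all promoters. The GC box GGGCGG was found in Lin28a, Pou5f1 and Zfp42 and in 35.6% of all promoters. The E-box CACGTG was found in 0 of the 6 members and in 7.15% of all promoters. These 4 motifs were searched for independently, and in the Zfp42 promoter the octamer and the GC box are separate stretches.

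Tfcp2l1 encodes a transcription factor of the CP2 family that supports the naive pluripotent state. Its peak was 1030 bp wide (chr1:118627594-118628623) and reached from 352 bp before to 677 bp after the first coding TSS, so that it contained the start site. Among protein-coding genes with a promoter peak, the widest peak had a median width of 1255 bp with quartiles of 908 and 1710 bp, and 33.5% of these genes had a narrower widest peak than Tfcp2l1. The Tfcp2l1 peak therefore had an ordinary width for a promoter peak. It was the only peak within 100 kb of the gene. Of the bases of the peak, 50.6% lay in introns, 15.3% in exons and 34.1% outside the gene.

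Pou5f1 and Nanog were unmarked at their start sites and had their nearest peaks 7059 and 4284 bp away. Pou5f1, which encodes the POU-domain factor at the centre of the network, had a gap of 7059 bp from its nearest TSS and of 9862 bp from its first coding TSS. That peak (chr17:35515880-35516842, 963 bp) contained a TSS of Tcf19, which runs towards Pou5f1 from the other side and ends 1962 bp from it. Nanog, the homeobox factor of the naive state, had the shortest gap of the 9, 4284 bp, to a 431-bp peak upstream (chr6:122702775-122703205). No coding gene starts at this peak, and the nearest TSS of any kind, of the pseudogene Gm10224, was 3747 bp away. The Nanog peak was thus not the start site of a neighbour, as the Pou5f1 peak was.

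Esrrb and Prdm14 lay further from any peak. Esrrb, an orphan nuclear receptor that Nanog is known to activate, had its nearest peak 117158 bp away, a 237-bp peak (chr12:86621567-86621803) beyond the gene's end, with Vash1 the nearest coding gene at 56897 bp. Prdm14, a PR-domain repressor needed in naive cells and primordial germ cells, had a gap of 134354 bp to a 1379-bp peak (chr1:12991431-12992809) that contained a TSS of Slco5a1. Sall4, a zinc finger factor that works with the POU factor, had a gap of 13571 bp from its nearest TSS and of 24829 bp from its first coding TSS, to a 324-bp peak (chr2:168742049-168742372) at a TSS of Atp9a. No peak lay within 100 kb of Esrrb or Prdm14, and 2 lay within 100 kb of Sall4, both at Atp9a.

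Zfp42, also known as Rex1, encodes a zinc finger protein much used as a marker of the ground state. Its nearest peak was 1322517 bp away, a 200-bp peak upstream (chr8:44629497-44629696), the smallest width in the list, with Fat1 the nearest coding gene at 305751 bp. Of the 9 unmarked members, 1 lay more than 1 Mb from the nearest peak, as did 4.13% of the 8942 coding genes without a promoter peak. Of the same 9, 3 (Zfp42, Esrrb and Prdm14) lay more than 100 kb away, as did 37.3% of the unmarked coding genes. The share at over 100 kb was thus near that of unmarked coding genes.

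Dppa3, Dppa5a and Lin28a had their nearest peaks at neighbouring coding genes. Dppa3, a maternal factor that protects DNA methylation marks in the zygote, had a gap of 23468 bp to a 797-bp peak (chr6:122602146-122602942) at a TSS of Apobec1. Dppa5a, which encodes a KH-domain protein, had a gap of 10114 bp to a 502-bp peak (chr9:78378291-78378792) at a TSS of Ooep, a gene of the same KH-domain family. Lin28a, an RNA-binding protein that blocks let-7 processing, had a gap of 8101 bp from its nearest TSS and of 17531 bp from its first coding TSS, to a 266-bp peak (chr4:134001045-134001310) 127 bp from a TSS of Dhdds. In all 3 cases the peak lay at the start of a neighbour.

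**Figure D1:**
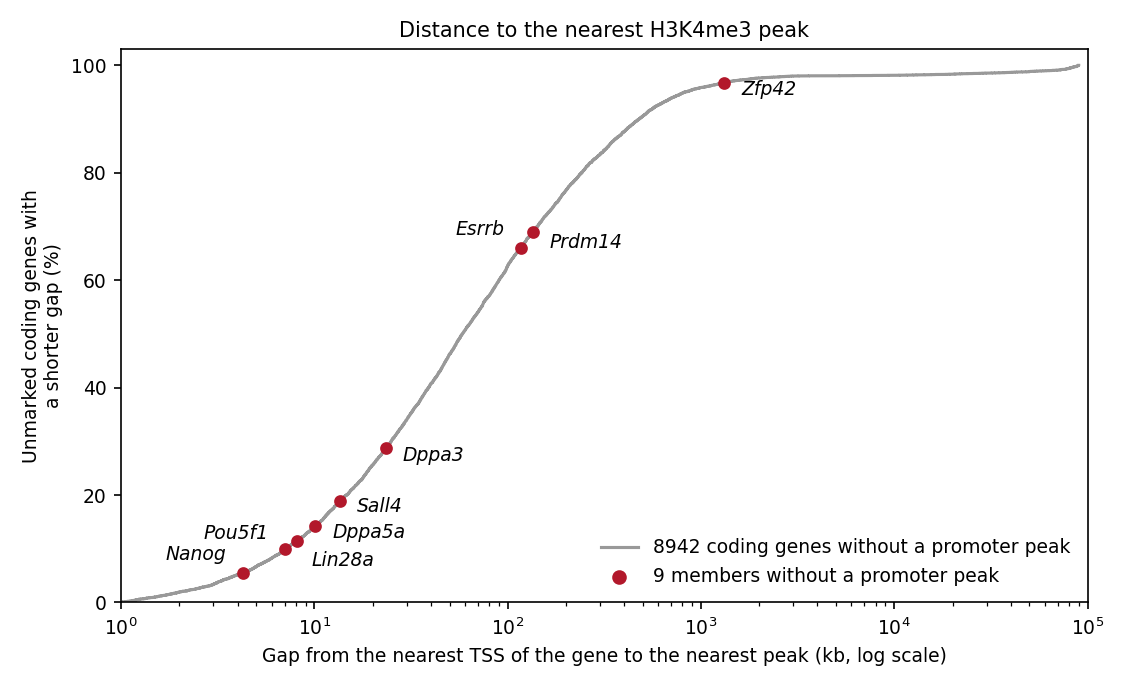
Gap from the nearest TSS to the nearest H3K4me3 peak in kb on a log scale (x axis) against the percentage of the 8942 coding genes without a promoter peak that have a shorter gap (y axis). The grey line gives these genes and the red points the 9 members without a promoter peak, which spread from Nanog at 5.57% to Zfp42 at 96.8%.

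Across the 9 unmarked members the median gap was 13571 bp. Coding genes without a promoter peak had a median of 58256 bp, with quartiles of 19313 and 184118 bp. Of the 9 members, 5 had a gap below the lower quartile. This count depended on the TSS taken: from its first coding TSS, Sall4 had a gap of 24829 bp, above that quartile. Of the unmarked coding genes, 5.57% had a shorter gap than Nanog, 9.90% than Pou5f1, 11.5% than Lin28a, 14.3% than Dppa5a and 18.8% than Sall4. Of the nearest peaks of these 5, those of Pou5f1, Lin28a, Dppa5a and Sall4 lay within 1 kb of the TSS of a neighbouring coding gene, and that of Nanog did not. With peaks of at least 500 bp only, the gap of Nanog was 34367 bp, that of Sall4 144201 bp and that of Zfp42 1626649 bp. Those of Esrrb and Lin28a moved less, to 118267 and 8503 bp. The nearest peaks of all these genes were shorter than 500 bp. Nanog and Sall4 then lay above the lower quartile given, which was not recomputed for peaks of this size.

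The unmarked members lay in peak-free stretches of very different length. The stretch around Zfp42 was 3.21 Mb long, with 20 of 25336 stretches in the genome longer. These are all intervals between adjacent peaks, with or without a gene. Of coding genes without a promoter peak, 96.8% had a shorter gap than Zfp42. The Zfp42 stretch held 7 coding genes and 18 enhancers. That is 2.18 genes and 5.60 enhancers per Mb, where the chromosomes held 8.02 and 12.1 per Mb. The stretches of Esrrb (378716 bp) and Prdm14 (378633 bp) were nearly equal in length, and each was counted as holding the member as its only coding gene. The bodies of Gpatch2l and Ncoa2, which have peaks at their starts, also reached into the Esrrb and Prdm14 stretches and were not counted. That of Pou5f1 was 251873 bp long and held 7 coding genes, with 0 enhancers. The shortest were those of Dppa3 (66786 bp), Dppa5a (51136 bp) and Nanog (38729 bp). In the same count the last held Nanog alone, although the body of Slc2a3 also reached into it.

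The coding genes next to the members were looked up to see whether whole neighbourhoods lacked peaks. Of 20 first neighbours, 12 carried a peak at a start site (60.0%, Wilson 95% interval 38.7 to 78.1%). Of all coding genes, 59.1% carried one. The 20 include Nanog and Dppa3, unmarked members that are first neighbours of each other. The share therefore partly restates the members' own result, and its nearness to 59.1% does not describe the neighbourhood alone. Tfcp2l1 and 3 unmarked members (Esrrb, Sall4 and Prdm14) lay between marked genes on both sides. Sall4 lay between Atp9a, 5923 bp away, and Zfp64, and Prdm14 between Ncoa2, 11942 bp away, and Slco5a1. These distances are between gene bodies, and the nearest peaks of Sall4 and Prdm14 were 13571 and 134354 bp away. The 2884-bp peak of Ncoa2 lay further from Prdm14 than that. Pou5f1, Nanog, Dppa5a and Lin28a had 1 marked neighbour each (Tcf19, Slc2a3, Ooep and Dhdds), and the other was H2-Q10, Dppa3, Gsta2 and Zfp683. Zfp42 and Dppa3 had none: Zfp42 lies between Triml2 and Adam26b, and Dppa3 between Gdf3 and Nanog.

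In all, 26 distinct peaks lay within 100 kb of a member, and 20 of them came within 1 kb of a coding TSS. The other 6 were the Nanog upstream peak, the 242-bp peak between Dppa3 and Nanog, 2 peaks in introns of Slc2a3 (258 and 704 bp), a 285-bp peak near Pou5f1 and a 1112-bp peak near Lin28a. Nanog therefore had 4 of these 6 within 100 kb. Members had a median of 2.5 peaks within 100 kb and coding genes a median of 4.

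**Figure D2:**
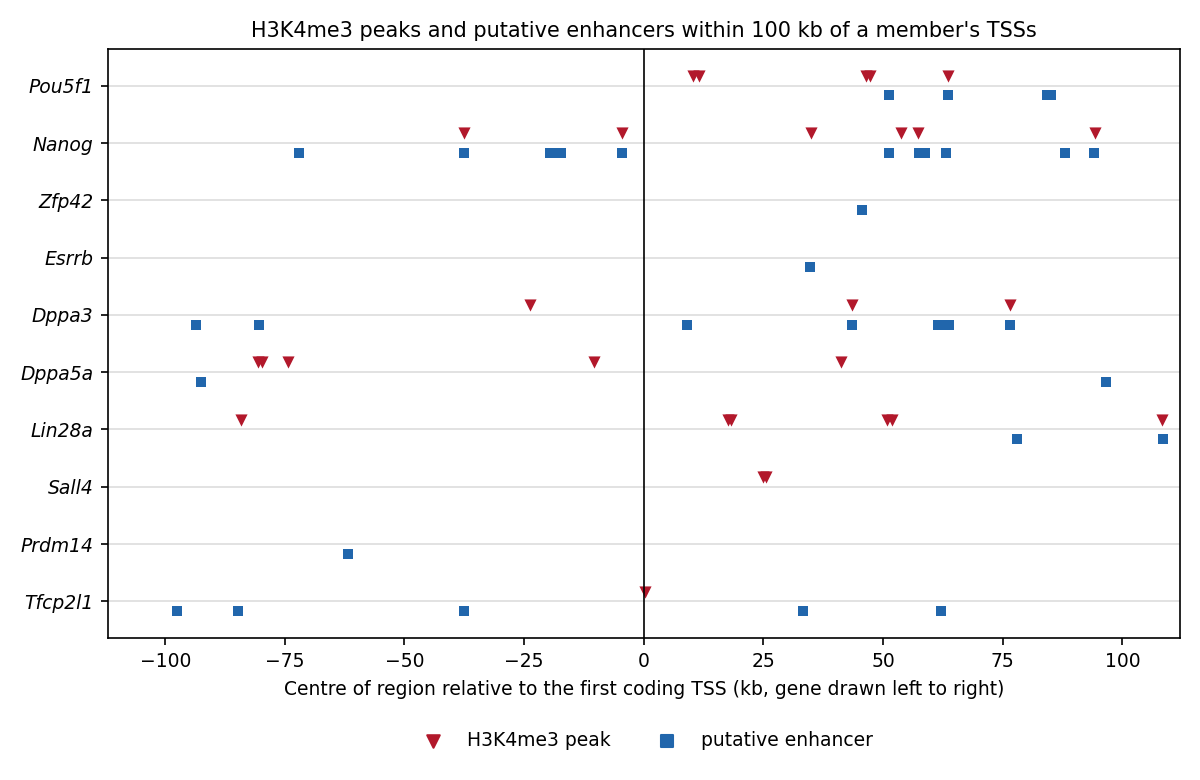
Centres of H3K4me3 peaks (red triangles) and putative enhancers (blue squares) within 100 kb of a TSS of each member, in kb from its first coding TSS, with genes drawn left to right. Tfcp2l1 is the only member with a peak at zero, and Zfp42, Esrrb and Prdm14 have no peak in the window.

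Putative enhancers, which the authors took from other marks and open chromatin in control cells, were present near most members. Of the 10 genes, 9 had at least 1 within 100 kb, as did 73.8% of coding genes. The median was 2 for the members, with a range of 0 to 12, and 2 for all coding genes, with quartiles of 0 and 5. Nanog had 12, more than 96.4% of coding genes had, and Dppa3 had 8, more than 87.8% had. Tfcp2l1 had 5 and Pou5f1 4. Dppa5a and Lin28a had 2 each, and Zfp42, Esrrb and Prdm14 had 1 each. Sall4 had 0, with its nearest enhancer 127656 bp away.

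Counted once, these are 30 enhancers, since Nanog and Dppa3 share 6. Of the 30, 14 lay in the body of a coding gene and 16 outside. Only Esrrb and Tfcp2l1 held an enhancer in their own body, each in an intron. The Esrrb enhancer (chr12:86395670-86396056) was 387 bp wide, and that of Tfcp2l1 (chr1:118660732-118661674) was 943 bp wide and lay 32786 bp from the TSS. Of the other 4 enhancers near Tfcp2l1, 3 lay in Clasp1 and 1 (chr1:118689668-118690302) outside genes. The nearest enhancer to Pou5f1, 47978 bp away, was 1094 bp wide and lay partly in Cdsn. Of the pair near Dppa5a, 1 lay in Mto1 and the other was 232 bp from the start of the pseudogene Dppa5c. The Zfp42 enhancer (chr8:43261225-43261519, 295 bp) lay outside genes, and that of Prdm14 (chr1:13188600-13189364, 765 bp) in an intron of Ncoa2. A position within 100 kb does not tie an enhancer to a gene, and in 10 of 36 pairs of a member and an enhancer the member was the nearest coding gene.

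Of the 30 enhancers, 6 overlapped an H3K4me3 peak, and 7.52% of all enhancers did. Of these 6, 4 were among the 12 near Nanog. The enhancer closest to Nanog (chr6:122702084-122703835) was 1752 bp wide, wider than 98.9% of all enhancers, and reached from -5405 to -3654 bp relative to the TSS. It contained the whole of the 431-bp peak whose middle is printed above. A second one (chr6:122669798-122670107, 310 bp) overlapped a 242-bp peak (chr6:122669729-122669970) between Dppa3 and Nanog. The other 2 overlapped peaks of 704 bp in an intron of Slc2a3, the glucose transporter gene downstream, and of 999 bp at its start, although the authors left out regions at TSSs of their own set. The remaining 2 enhancers of the 6 lay near Pou5f1 (chr17:35569338-35569701) and Lin28a (chr4:133910036-133910687), where Rps6ka1 was the nearest coding gene at 22239 bp.

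**Figure D3:**
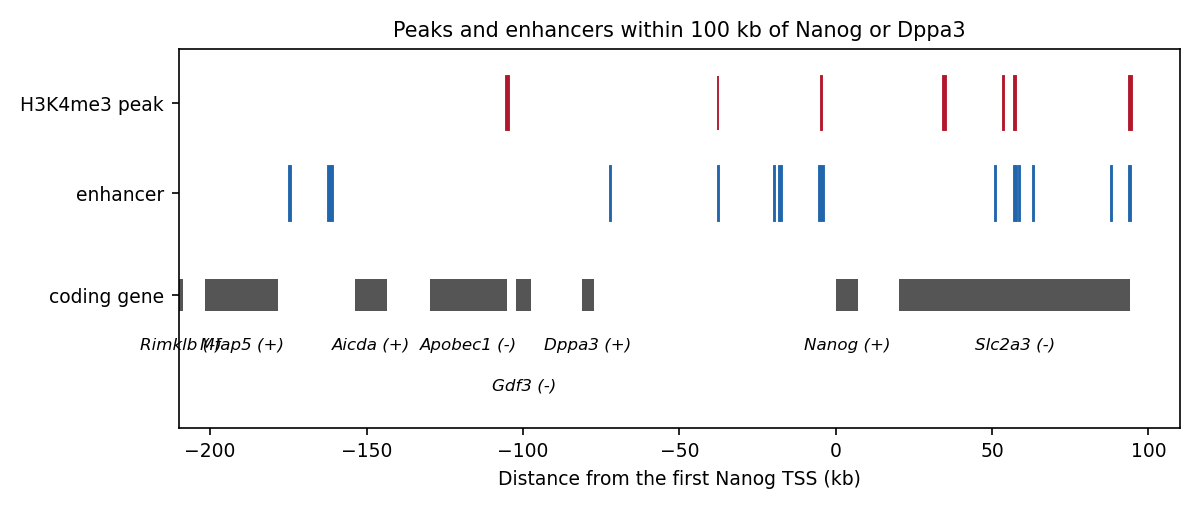
Peaks (red), enhancers (blue) and coding genes (grey, with strand) around Nanog, in kb from its first TSS. The peak and the wide enhancer just before Nanog overlap, and no peak lies at the starts of Nanog, Dppa3 or Gdf3.

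In this stretch 5 of the 12 enhancers had Nanog as the nearest coding gene and 6 lay in Slc2a3. The enhancer nearest to Dppa3 (chr6:122635401-122635654, 254 bp) lay past the gene's end and overlapped no peak. Searched for the same 4 motifs, the Nanog upstream peak held 0 octamers and 1 TATAAA, and the enhancer around it also held 1 GGGCGG. All 32-base words in this peak and in the windows of 1 kb on each side of the Nanog start were unique in the reference.

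The members' promoters were next set against promoters of the same broad CpG class. CpG-rich here means an observed to expected CpG ratio of at least 0.6 with at least 55% GC in 500 bp on each side of the first coding TSS, CpG-poor means a ratio below 0.4, and the rest are intermediate. Sall4 was the CpG-rich member (ratio 0.832, 55.4% GC, just over the limit), and it had no peak, while 93.2% of CpG-rich coding genes had one. The CpG-rich coding genes without a peak numbered 576.

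Tfcp2l1 (ratio 0.584, 59.6% GC) was intermediate and just under the CpG-rich ratio limit. Prdm14 (0.504), Zfp42 (0.503), Dppa3 (0.443) and Dppa5a (0.441) were also intermediate. Of these 5, 1 had a peak, as did 76.5% of intermediate coding genes. Lin28a (0.384), Pou5f1 (0.332), Nanog (0.303) and Esrrb (0.283) were CpG-poor, and 0 of these 4 had a peak, as did 15.9% of CpG-poor coding genes. Lack of a peak was the common state of the CpG-poor class, while the unmarked members of the other classes were without a peak where most genes of the class had one. The median ratio was 0.442 over the members and 0.561 over coding genes.

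The class depended on the start site and the window taken, and 4 members changed class with 250 bp or 1 kb on each side. Esrrb has downstream TSSs with ratios of 0.661 and 0.733 and Lin28a one with 0.601, which are CpG-rich, and so 3 members (Esrrb, Lin28a and Sall4) had a CpG-rich start among all their TSSs. None of the 3 had a peak, while 92.9% of coding genes with such a start did. Lin28a and Sall4 were intermediate with both of these windows. The share of coding genes with a peak was not computed for classes set with these windows. Tfcp2l1 was CpG-rich with 250 bp, and Dppa5a was CpG-poor with 1 kb.

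**Figure D4:**
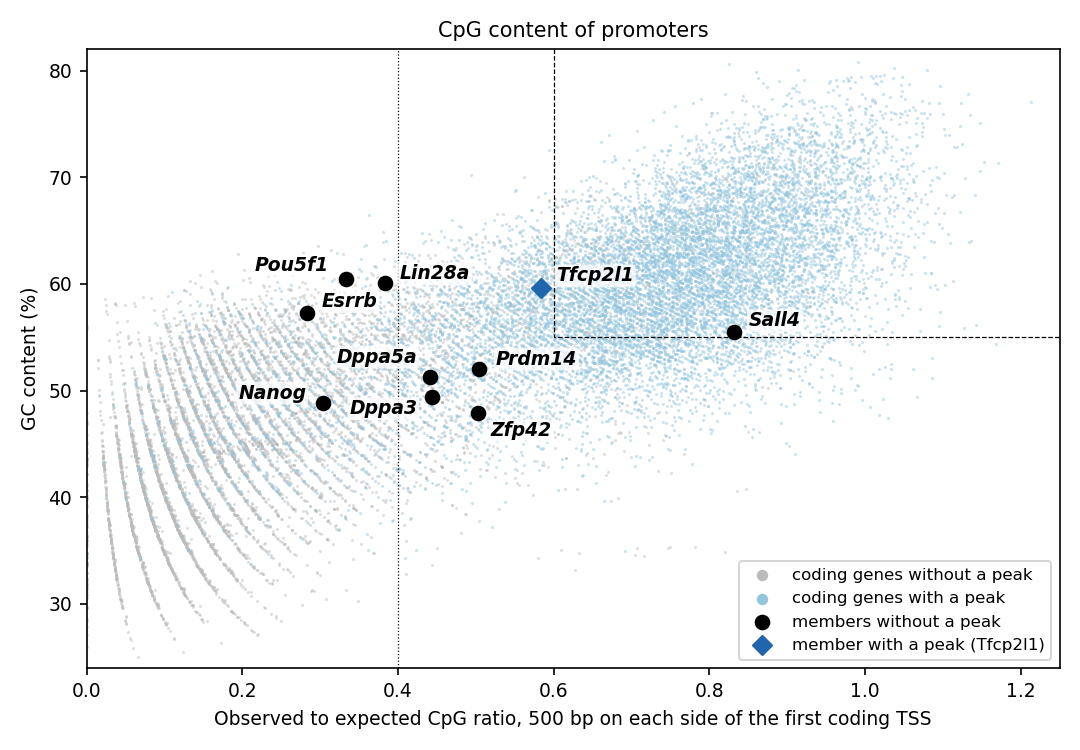
Observed to expected CpG ratio (x axis) and GC content in % (y axis) of 500 bp on each side of the first coding TSS, for coding genes with a peak (light blue) and without (grey). Black circles are the 9 members without a peak and the blue diamond is Tfcp2l1; the dashed lines bound CpG-rich promoters and the dotted line the CpG-poor ones.

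How far the sequence at the members' first coding start sites is unique was read from the reference. By the paper's methods the reads were longer than the 32-base words used here, so the share of reads that could be placed was not measured. The share of 32-base words that are unique in the genome, within 1 kb on each side of the first coding TSS, was 87.8% to 100% in 9 members. It was 55.4% for Dppa5a, and its part in the lack of a Dppa5a peak was not tested. For Nanog and Sall4 every such word was unique.

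Other genes of the pluripotency network were looked up in the same way. Of 32 other early embryo genes, 12 carried a promoter peak (37.5%, Wilson 95% interval 22.9 to 54.7%), again against 59.1% of coding genes. By width, these were led by Tbx3 (2651 bp), a T-box factor, Klf2 (2107 bp) and Klf5 (1633 bp), both Krüppel-like factors, and Dnmt3b (1595 bp), a de novo DNA methyltransferase. They were followed by Fgf5 (1451 bp), Trim71 (1437 bp), Lin28b (1120 bp), the paralogue of the unmarked Lin28a, and Prdm1 (1075 bp). Sox2, the partner of the POU factor, had no peak within 163458 bp although its promoter was CpG-rich, a gene picked here after its values were seen. Of the 12 CpG-rich genes in this list, 7 had a peak, where 93.2% of CpG-rich coding genes had one.

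Of 20 regulators of self-renewal that many cell types use, all 20 had a promoter peak (Wilson 95% interval 83.9 to 100%), where 59.1% of coding genes had one. Of the 20, 17 were CpG-rich, a class in which 93.2% of coding genes had a peak, so their count was near the share of that class. The widest peak per gene had a median width of 1913 bp, and the genes included Myc (4380 bp) and Klf4 (3073 bp), named after their values were seen. The Tfcp2l1 peak of 1030 bp was narrower than that median.

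Fibroblast markers were looked up in the same way. Like the other gene lists here, this one was chosen with earlier results of these data known. It is therefore not an independent check of the cell type. Of 20 markers, 18 had a promoter peak (90.0%), with a median width of 2493 bp, and Dcn and Lum, 2 small proteoglycan genes, did not. Of 29 markers of other cell types 6 did (20.7%): the epithelial Cdh1 (602 bp) and Epcam (724 bp), the endothelial Kdr (1009 bp) and Tek (435 bp), the neural Syt1 (1737 bp) and the germ cell gene Dazl (355 bp). Of all coding genes, 59.1% had a promoter peak. Haematopoietic markers had 0 of 7. All of these were CpG-poor, a class in which 15.9% of coding genes had a peak, so their count was near that share. The marker lists were not matched for CpG content. The members' 1 of 10 lay among the shares of these other cell types and below that of fibroblast markers, and the difference was not tested, since genes are not replicates.

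**Figure D5:**
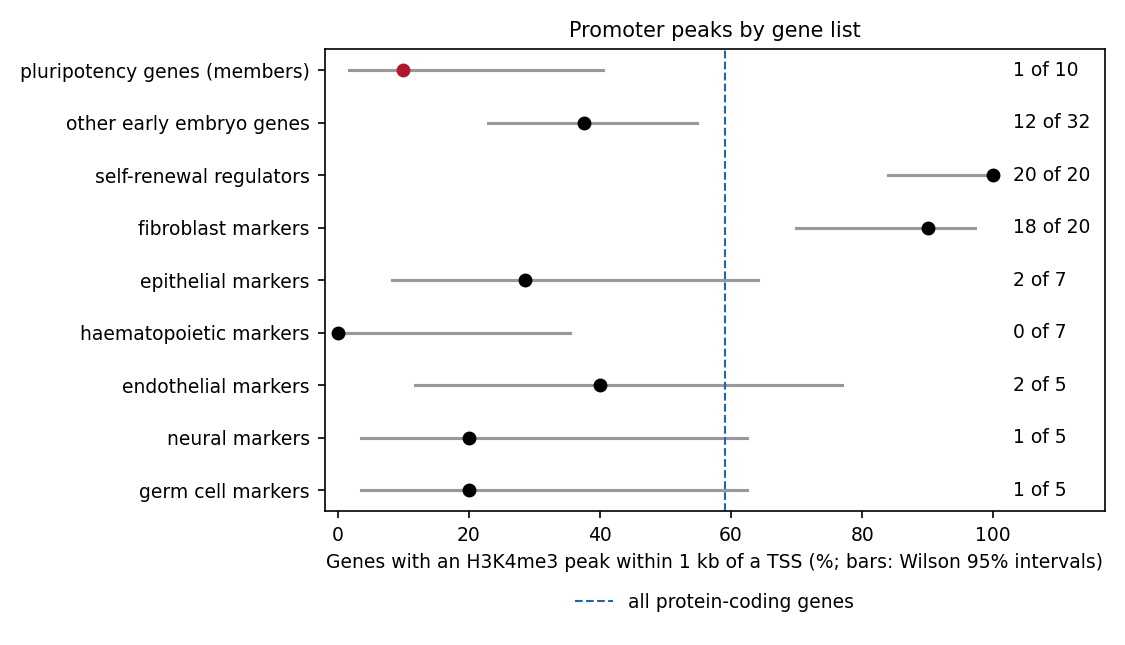
Percentage of genes with an H3K4me3 peak within 1 kb of a TSS in each list (points), with Wilson 95% intervals (bars) that cover counting error only. The dashed line is the 59.1% of all protein-coding genes, and the members (red, 1 of 10) lie below it while self-renewal regulators (20 of 20) and fibroblast markers (18 of 20) lie above it.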

How the data were processed

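The authors' methods describe trimming of reads with Trim Galore, alignment with BWA to mm10, filtering with samtools, merging of replicates with Picard and narrow peak calling with MACS, with versions not given in the sources used here. The deposited lists hold positions and no other value: peaks as a union over all samples, with starts counted from 0 (1 was added), and enhancers of control cells, with starts counted from 1. The planned count test of changes with time needs counts and was not run. TSSs were the transcript starts of GENCODE M21 on GRCm38.p6. CpG ratios, unique 32-base words and motif matches were read from this reference. Intervals are Wilson 95% intervals and cover counting error only. No test between groups was run, since the lists used here hold no values per sample. The interval functions were tested on simulated data. The members and gene lists were chosen with earlier results of these data known. Genes named are the members, the genes at their nearest peaks, their neighbours, and list genes with a peak (early embryo, other cell types) or without (self-renewal, fibroblast), up to 8 per list by width, with exceptions stated. Alternatives were other windows, TSS sets, peak sizes and distances. Python 3.11.15, NumPy 2.4.6, pandas 2.3.3, SciPy 1.17.1 and Matplotlib 3.10.9 were used.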

Additional observations from a re-analysis of the deposited data

How the results depend on the processing

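No paired analysis was possible because both lists hold positions only, and for the same reason no replicate could be left out, and the planned count test and its alternatives were not run. Tfcp2l1 was the 1 member with a promoter peak under all 6 alternatives to the window, the TSS set, the peak size and the overlap rule. The median gap over all 10 members, with the marked Tfcp2l1 at 0, was 11842.5 bp from the nearest TSS, 20499.5 bp from the most 5′ coding TSS and 28917.5 bp with peaks of at least 500 bp. The median number of enhancers was 2 within 100 kb, 1 within 50 kb, 6 within 200 kb and 1.5 for enhancers over 1 kb from every TSS. CpG-rich members numbered 1 as reported, 0 with 1 kb on each side, and 3 when any TSS counted, a choice made after seeing the data. Coding genes without a promoter peak were added as a background for gaps after seeing the data, and 18.8% of them lay closer to a peak than Sall4, the median of the 9 unmarked members. The neighbour share, the Tfcp2l1 width and the early embryo and self-renewal counts moved by less than 1.5 times. No alternative was run for the marker lists, where Tek, Dazl, Col3a1, Fap and Postn rest on peaks under 500 bp. Library depth is unknown, and how it limits weak peaks was not tested.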
